A study of Mus musculus with 2 samples.

Results

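The early erythroid cells of the bone marrow, progenitors that had begun the red cell program but had not yet filled with hemoglobin RNA, were taken from Sc-RNA-Seq libraries of 1 WT and 1 Cko mouse. A cell was included when it held at least 3 UMIs (unique molecular identifiers, each standing for 1 captured RNA molecule) of *Car1*, less than 1% of its UMIs in hemoglobin genes, less than 0.1% in *Mpo* and *Ctsg*, no UMI of *Cd79a*, and less than 2% in *Camp*, *Ngp*, *Ltf*, *Lcn2*, *S100a8* and *S100a9*. The members were thus chosen by measured UMI counts of these genes, and by this rule 483 of 9933 cells were early erythroid, 383 of 6271 in the WT library and 100 of 3662 in the Cko library. Both mice were C57BL6/J and 21 days old, and the BMCs came from the forelimbs and hindlimbs after lysis of red blood cells. The Cko mouse was S1P f/f;Osx-Cre, with both floxed copies of exon 2 of *Mbtps1* (the gene of site-1 protease, S1P) and a Cre-GFP transgene. The transgene is driven by the osterix (*Sp7*) promoter, which is used to reach the bone-forming lineage. The paper proposes that this Cre is also active in hematopoietic cells, and reports exon 2 deleted in sorted neutrophils of Cko mice. The label of the other mouse gives WT only, and the paper describes its WT mice as S1P f/f, which also carry the floxed copies. No library of a mouse with the Cre transgene alone was analysed here.

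The committed erythroid progenitor is driven by the transcription factors GATA1 and KLF1 and by erythropoietin acting through its receptor. It divides several times while it makes ribosomes, then turns to heme and globin synthesis, takes up iron through the transferrin receptor and builds the red cell membrane. *Gata2* and *Myb* belong to the progenitor state and are switched off as hemoglobin accumulates, and *Car1*, a carbonic anhydrase, is a known product of the early erythroid progenitor.

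The early erythroid cells were among the deeply covered cells of both libraries, with a median of 17863 UMIs and 3063 genes per cell in the WT (3126 to 37761 UMIs) and 21495 UMIs and 3108 genes in the Cko (4023 to 51672 UMIs). All WT cells together had a median of 6977 UMIs and all Cko cells 7440. The counts used here sum to 6753833 UMIs of early erythroid cells in the WT and 2130657 in the Cko. Scrublet called 6 of the WT and 2 of the Cko early erythroid cells as doublets. The libraries shared 28 cell barcodes, and 1 of these marked an early erythroid cell in either library. The mice also differed in sex as judged by their RNA. *Xist*, the RNA of the inactive X chromosome, had a UMI in 100% of the Cko cells at 1263 CPM and was not listed for the WT, whereas the Y-linked *Ddx3y* (28.7 CPM) and *Eif2s3y* (46.0 CPM) were listed for the WT only. With 1 library per genotype no difference between genotypes has a replicate check, genotype and sex cannot be told apart, and the 95% intervals below (exact Poisson for sums of UMIs, exact binomial for shares, exact conditional for ratios) cover counting error only. Levels are CPM, the UMIs of a gene per 1000000 UMIs of the cells compared.

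The *Car1* level, which the rule used, was 1403 CPM (1375 to 1432) in the WT and 2028 CPM (1968 to 2089) in the Cko. The median cell held 20 *Car1* UMIs in the WT library and 32.5 in the Cko library, and 79.6% of the WT and 85% of the Cko cells held 10 or more, so most cells lay well inside the limit of 3. At the limit itself, 18 WT cells had 3 *Car1* UMIs and 23 otherwise eligible cells had 2. These excluded WT cells carried *Klf1* at 375 CPM and *Mt2* at 560 CPM against the 448 and 766 CPM of the cells at 3 UMIs, whereas in the Cko the 3 cells at 2 UMIs had *Klf1* at 184 CPM and the 3 cells at 3 UMIs at 532 CPM. On the hemoglobin side, 9 WT cells lay between 0.9% and 1% and 11 lay from 1% to under 1.1%, against 2 and 0 Cko cells. The *Cd79a* condition kept 47 WT and 7 Cko cells out, the condition on the 6 neutrophil genes 11 and 3, and that on *Mpo* and *Ctsg* at less than 0.5% 1 and 0. The median hemoglobin share was 0.280% in the WT and 0.0654% in the Cko early erythroid cells. The *Cd79a* cells of the same libraries, B cells that do not make hemoglobin, held 0.300% and 0.0782%. The *Mpo* and *Ctsg* progenitors held 0.237% and 0.0540%, so the median share of the early erythroid cells lay between those of these classes. All these classes were limited to less than 1% hemoglobin and differed in depth. Whether the early erythroid cells held more hemoglobin RNA than free RNA gives was therefore not tested.

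Metallothioneins stood next to *Car1*. *Mt1* and *Mt2*, small metal-binding proteins that buffer zinc and copper, were at 1139 CPM (1113 to 1165) and 743 CPM (722 to 764) in the WT and at 1698 CPM (1643 to 1754) and 1305 CPM (1257 to 1354) in the Cko. *Mt1* had a UMI in 98.7% of the WT and 97.0% of the Cko cells, and *Mt2* in 93.2% and 83.0%. With each cell thinned to 3000 UMIs, 78.9% (74.4 to 82.8) of the WT and 75% (65.3 to 83.1) of the Cko early erythroid cells still held *Mt2*, against 2.46% and 0.685% of the *Cd79a* cells, whose median depths were 5736 and 6923 UMIs. *Mt2* was therefore present in most of these cells, and in a far larger share of them than of the *Cd79a* cells of either library. Across thinned cells, the counts of *Mt1* and *Mt2* had a Spearman rho of 0.35 over 383 WT cells and 0.57 over 100 Cko cells, and their sum and the summed *Car1* counts had a rho of -0.04 and 0.10. These describe cells of a single library each.

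The genes lie beside each other on chromosome 8, *Mt2* at chr8:94172664-94173568 and *Mt1* at chr8:94179082-94180327 (GENCODE, GRCm38, plus strand). Their promoters are shown because both genes led these cells together. RefSeq (GRCm38.p6) gives 300 bases for each, 250 before and 50 after its start, at chr8:94172368-94172667 for *Mt2* and chr8:94178839-94179138 for *Mt1*. Capitals mark the core of the metal responsive element, searched as TGCACNC and TGCGCNC on both strands. Of the 5 markers, 2 (*Mt1* and *Mt2*) had a promoter in the table.
Mt2: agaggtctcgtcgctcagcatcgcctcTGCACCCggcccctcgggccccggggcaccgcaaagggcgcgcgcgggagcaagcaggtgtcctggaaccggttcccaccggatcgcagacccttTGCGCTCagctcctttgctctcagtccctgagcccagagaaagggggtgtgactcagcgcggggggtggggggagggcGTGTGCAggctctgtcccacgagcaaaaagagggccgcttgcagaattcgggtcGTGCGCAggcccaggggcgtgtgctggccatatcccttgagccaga
Mt1: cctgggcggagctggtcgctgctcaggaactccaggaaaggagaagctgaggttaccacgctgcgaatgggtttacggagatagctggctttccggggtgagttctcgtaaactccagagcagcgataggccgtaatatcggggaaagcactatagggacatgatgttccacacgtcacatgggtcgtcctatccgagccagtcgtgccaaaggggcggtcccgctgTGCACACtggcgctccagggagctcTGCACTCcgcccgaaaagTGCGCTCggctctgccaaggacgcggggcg
The *Mt2* promoter held 4 matches and the *Mt1* promoter 3. At least 1 match was found in 25.7% of the 32851 RefSeq promoters of this length and at least 4 in 0.517%. A match describes the letters and does not show that a factor binds there.

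The other markers were lower. *Fam132a*, which encodes the secreted protein adipolin, was at 653 CPM (634 to 673) in the WT and 356 CPM (331 to 382) in the Cko, with a median of 11 and 5 UMIs per cell. *Atp1b2*, a beta subunit of the sodium and potassium pump, was at 86.6 CPM and 78.4 CPM and had a UMI in 71.0% of the cells of both libraries. *Car1*, *Mt1* and *Mt2* were thus higher, and *Fam132a* lower, in the Cko, and the intervals of *Atp1b2* overlapped.

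**Figure D1:**
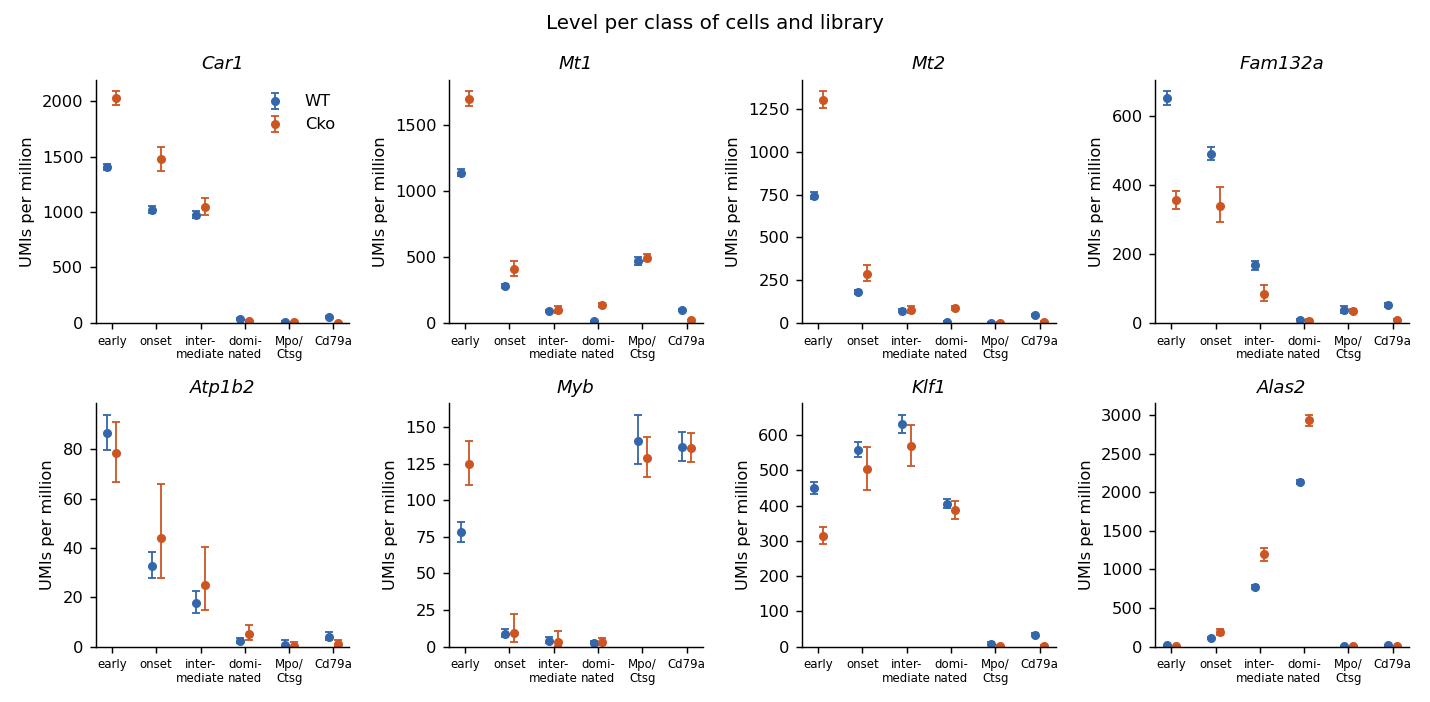
CPM of 8 genes in 6 classes of cells of the WT (blue) and Cko (orange) library, with exact 95% Poisson intervals; early, onset, intermediate and dominated are windows of the hemoglobin share of a cell. *Mt1*, *Mt2*, *Atp1b2* and *Myb* were lower in the onset than in the early cells of both libraries, and *Alas2* was higher.

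The erythroid label was checked against markers of the lineages that the marrow holds. All 20 erythroid identity genes were listed in both libraries and detected, among them *Epor* (the erythropoietin receptor, 106 CPM in the WT and 76.5 CPM in the Cko), *Tfrc* (the transferrin receptor, 126 and 143 CPM), *Car2* (2333 and 2086 CPM) and *Ermap* (184 and 125 CPM). *Klf1* was at 449 and 315 CPM and *Gata1* at 153 and 118 CPM. The *Cd79a* cells held less of these factors, with *Klf1* at 33.7 CPM and *Gata1* at 14.0 CPM in the WT and 2.88 CPM and 0.767 CPM in the Cko. After thinning, *Klf1* had a UMI in 72.6% of the WT and 62.0% of the Cko cells against 4.92% and 0.514% of the *Cd79a* cells. The summed level of the 18 megakaryocyte genes was 38.6 CPM for the WT and 74.2 CPM for the Cko, and the 11 listed mast and basophil genes reached 5.63 and 10.3 CPM. The 12 B cell genes, with *Cd79a* set to 0 by the rule, came to 46.0 and 35.2 CPM against 11399 and 10519 CPM in *Cd79a* cells. The 7 T and NK cell genes came to 5.92 and 28.6 CPM, with *Cd3e*, *Cd3g* and *Thy1* at 0 in both libraries and *Nkg7* making up most of the Cko value. The 17 neutrophil and myeloid genes came to 1496 and 1806 CPM and the 12 monocyte and macrophage genes to 73.9 and 74.2 CPM, below the 2645 and 2938 CPM and the 425 and 350 CPM that these lists had in *Cd79a* cells. The rule capped 6 neutrophil genes, *Mpo* and *Ctsg*, so the neutrophil level does not check the label. Of the stem cell genes, *Cd34* (0.888 and 1.41 CPM), *Flt3* (0.148 and 0.469 CPM) and *Ly6a* (0.296 CPM and 0) were near 0, whereas *Kit*, the stem cell factor receptor, was at 29.8 and 42.2 CPM and *Ifitm1*, *Muc13* and *Gata2* reached 88.7, 45.1 and 31.9 CPM in the Cko. The whole stem and multipotent list summed to 364 CPM in WT and 466 CPM in Cko early cells, against 376 and 352 CPM in *Cd79a* cells. The cells thus carried the genes of erythroid progenitors. The megakaryocyte, mast cell, T and NK cell and monocyte lists were below their level in *Cd79a* cells of the same library. The stem and multipotent list was above that level in the Cko (466 against 352 CPM). The B cell list was lower partly by construction, and whether *Cd79a* cells make RNA of the other lists themselves was not tested.

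The genes with the highest folds over all other cells, by the smaller of the WT and Cko folds, were *Mt2* (9.27-fold in the WT and 29.9-fold in the Cko), the serine protease gene *Prss50* (9.06 and 27.9) and the endosomal GTPase gene *Rab4a* (9.03 and 17.1). *Prelid2*, *Gdf3*, *Hpn*, *1700006J14Rik*, *Atp1b2*, *Mt1*, *Rangrf*, *Cenpv*, *Pvt1*, *Sdsl*, *Atp7b* and *Fam195a* followed. *Gdf3* encodes a ligand of the TGF-beta family (41.9 and 39.9 CPM), *Hpn* the membrane serine protease hepsin (50.9 and 35.2 CPM), *Atp7b* a copper-transporting pump (27.4 and 21.6 CPM), and *Pvt1* is the non-coding neighbour of *Myc* (31.2 and 29.1 CPM). *Rangrf*, which codes for a factor that binds the GTPase Ran, was at 222 and 199 CPM and had a UMI in 94.3% and 90% of the cells. The list describes how the cells were chosen and is no test. The folds were larger in the Cko for 14 of these 15 genes, the exception being *Fam195a* (5.70 and 5.67), and the other cells of the Cko library held fewer erythroid cells.

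The share of early erythroid cells among all cells was 6.11% (5.53 to 6.73) in the WT and 2.73% (2.23 to 3.31) in the Cko, a log2 ratio of -1.16 (-1.49 to -0.84). Cells of the same rule at hemoglobin onset, with hemoglobin from 1% to under 10% of the UMIs, made up 5.47% and 0.710%, those with an intermediate share from 10% to under 50% made up 6.39% and 1.53%, and hemoglobin dominated cells, at 50% or more and with no *Car1* minimum, 26.7% and 8.30%. All the erythroid windows were smaller in the Cko, while cells with high levels of the neutrophil genes were 14.2% of the WT and 37.8% of the Cko library. Within the *Car1* cells below 50% hemoglobin the order turned. The early cells were 34% (31.2 to 36.8) of 1127 WT cells and 54.9% (47.4 to 62.3) of 182 Cko cells, a log2 ratio of 0.69 (0.36 to 1.01). The cells at onset were 30.4% and 14.3%, and the intermediate cells 35.6% and 30.8%. The early cells were thus a smaller share of the marrow and a larger share of the *Car1* line in the Cko library. Lysis of red cells and a single library per genotype both bear on these shares, and their part was not tested.

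**Figure D2:**
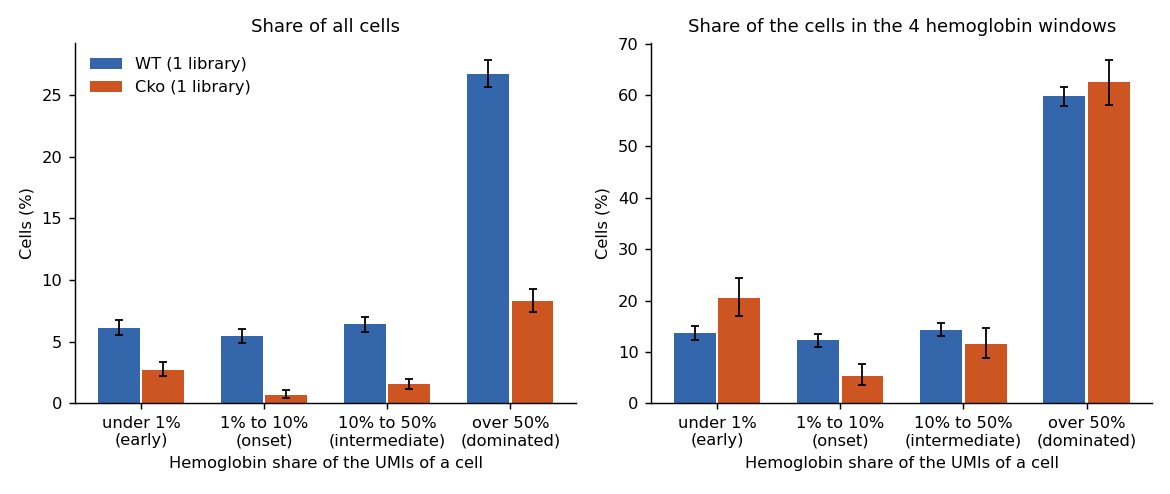
Percentage of cells in 4 windows of the hemoglobin share, out of all cells (left) and out of the cells of the 4 windows (right), for the WT (blue) and Cko (orange) library, with exact 95% binomial intervals. The early window held 6.11% of all WT and 2.73% of all Cko cells, but 13.7% of the WT and 20.6% of the Cko cells in the 4 windows.

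The early cells were next set against the 343 WT and 26 Cko cells at hemoglobin onset. Of 2765 genes with at least 100 UMIs in each library, 155 (5.61%) were at least 2-fold higher in the early cells of both libraries and 59 (2.13%) were at least 2-fold lower. The rule separates these classes by hemoglobin, so the hemoglobin genes are lower by construction (*Hbb-bs* at 1442 CPM in the early and 15778 CPM in the onset cells of the WT), and *Hba-a1* and *Hba-a2*, as well as *Hbb-bs* and *Hbb-bt*, are close copies whose reads may be split between them. The 10 genes that were highest in the early cells were *Ass1*, *Gna15*, *Ptpre*, *Ccnd2*, *Hhex*, *Cmtm7*, *Myb*, *Psmb8*, *Hdac7* and *Gcsh*. *Ass1*, an enzyme of arginine synthesis, was at 22.5 CPM in early and 1.01 CPM in onset cells of the WT and at 84.5 and 3.82 CPM in the Cko. *Ccnd2*, the D-type cyclin of progenitors, was at 50.2 and 3.44 CPM in the WT and at 92.9 and 7.64 CPM in the Cko. *Ccnd3*, the D-type cyclin that erythroid cells use later, went the other way, from 192 to 834 CPM in the WT and from 127 to 676 CPM in the Cko. *Myb*, which keeps progenitors cycling, was at 78.3 and 8.90 CPM in the WT and at 125 and 9.55 CPM in the Cko. Besides the hemoglobins, the lowest genes in the early cells included *Alas2*, *Mgst3*, *Ccnd3*, *Hagh* and *Grina*. *Alas2*, the erythroid enzyme that starts heme synthesis, was at 14.2 and 110 CPM in early and onset cells of the WT and at 5.63 and 187 CPM in those of the Cko.

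By function, ribosome production marked the early cells. All 24 tested genes of ribosome biogenesis were higher than at onset in both libraries. At least 2-fold higher were 8 of them, against 5.61% of all genes tested. Their median log2 ratio was 1.22 in the WT and 0.80 in the Cko, against 0.15 and 0.09 over all genes. *Ncl* (nucleolin) was at 1417 and 683 CPM in the WT and at 1179 and 892 CPM for the Cko, and *Mybbp1a*, a nucleolar protein, at 126 and 39.6 CPM and at 111 and 45.8 CPM. Heme synthesis was the counterpart, with all 11 tested genes lower than at onset in both libraries (medians -1.03 and -1.44). Of these, 7 were at least 2-fold lower, against 2.13% of all genes tested. The 24 S phase genes had 23 lower in both libraries and 3 at least 2-fold lower (medians -0.74 and -1.15). The 25 genes of G2 and mitosis had 24 lower and 3 at least 2-fold lower (-0.70 and -0.83), again against 2.13% of all genes. The shares of all genes that were merely higher or lower in both libraries were not counted. The erythroid transcription factors as a list were close to level (7 higher and 9 lower of 17, medians -0.15 and -0.25). Of these 17, *Myb* and *Cbfa2t3* were at least 2-fold higher in the early cells of both libraries, against 5.61% of all genes. *Cbfa2t3* encodes a corepressor that works with GATA1 and TAL1. *Gata2* was not among the genes tested here and had 6.51 CPM in early and 1.42 CPM in onset cells of the WT, and 31.9 CPM and 0 in the Cko, where a count of 0 allows up to 5.73 CPM. Before hemoglobin, then, ribosome genes were high and most heme, red cell membrane (10 of 12) and cell cycle genes were below the level they had at onset.

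**Figure D3:**
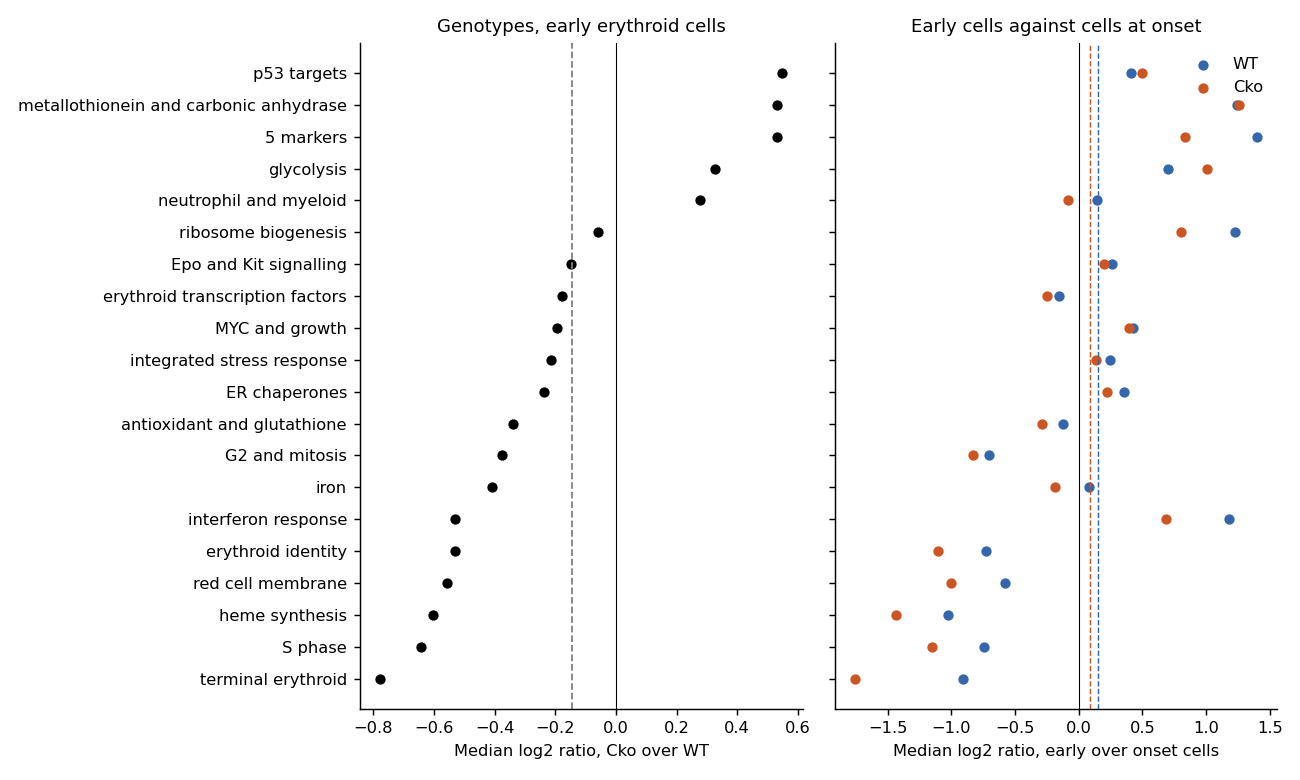
Median log2 ratio of each gene list, Cko over WT in early erythroid cells (left, black) and early over onset cells in the WT (blue) and Cko (orange) library (right). Dashed lines give the median of all genes tested, and heme synthesis, S phase, red cell membrane and terminal erythroid genes lay below it in both panels.

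The cells varied along this same axis. An onset index was formed for each cell as the log2 ratio of the summed UMIs of the 6 lowest genes other than hemoglobins, among them *Alas2*, *Mgst3*, *Ccnd3*, *Hagh* and *Grina*, to those of the 10 early genes above, with 1 added to each sum, and the cells of both libraries were divided at its tertiles. The lowest tertile held 70.0% (60.0 to 78.8) of the Cko and 23.5% (19.3 to 28.1) of the WT cells, and the highest held 11% and 39.4%. The median index was 0.32 for WT and -2.02 for Cko cells. In WT cells *Mt1* was at 1456, 1289 and 828 CPM from the lowest to the highest tertile, *Fam132a* at 371, 699 and 762 CPM, *Rhd* at 108, 201 and 331 CPM, and the S phase genes summed to 2923, 4010 and 5067 CPM. In the Cko *Mt1* was at 1908, 1433 and 879 CPM and *Fam132a* at 246, 571 and 642 CPM, and the S phase genes summed to 2209, 3266 and 4755 CPM. *Mt1* was thus highest, and *Fam132a* and the S phase genes lowest, at the end of the index farthest from hemoglobin, in both libraries. The *Cd79a* cells differed too, with *Alas2* at 16.7 CPM in those of the WT and 3.83 CPM in those of the Cko. The part of free RNA in the index was not tested. The 10 early genes of the index summed to 49.1 CPM in WT and 95.5 CPM in Cko cells at onset. The index therefore cannot tell the position of a cell apart from a difference between the libraries in these genes.

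**Figure D4:**
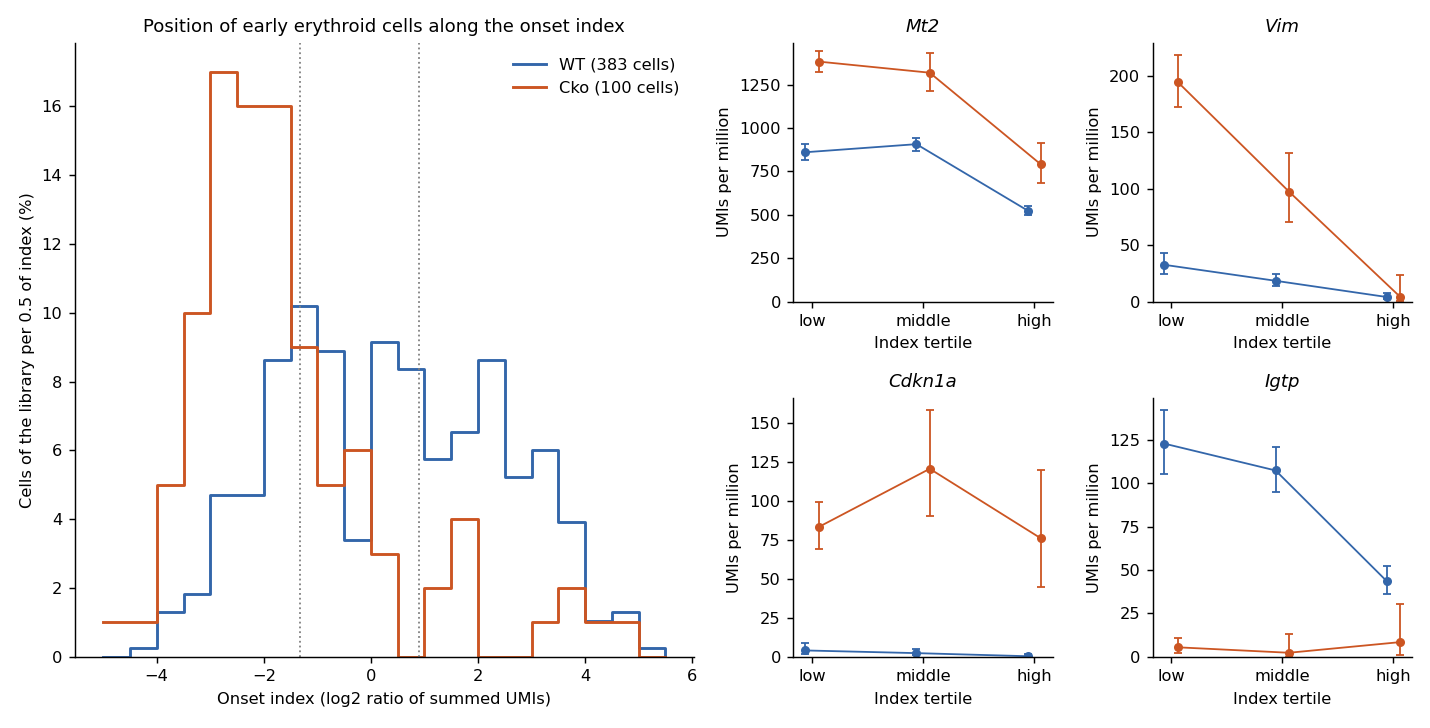
Distribution of early erythroid cells over the onset index in each library (left, with dotted lines at the tertiles of both libraries together), and CPM of 4 genes in each tertile with exact 95% Poisson intervals (right). In the lowest tertile lay 70.0% of the Cko and 23.5% of the WT cells, and *Cdkn1a* and *Igtp* differed between the libraries in every tertile.

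Division by *Car1* itself gave a different picture. With limits at 9.66 and 18.6 *Car1* UMIs per 10000, the highest tertile held 52.0% of the Cko and 28.5% of the WT cells. From the lowest to the highest *Car1* tertile of the WT, *Mt1* stayed between 1094 and 1177 CPM, heme synthesis genes summed to 3872, 3452 and 2999 CPM, and *Myb* was at 58.8, 81.1 and 102 CPM. In the Cko the heme genes came to 2519, 2067 and 2216 CPM and *Myb* to 105, 140 and 129 CPM. At each *Car1* tertile the heme genes were lower and *Myb* was higher in the Cko.

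Between the genotypes, 4674 genes with at least 100 UMIs over both libraries were compared in the early erythroid cells. At least 2-fold higher in the Cko were 106 genes (2.27%) and at least 2-fold lower 91 (1.95%), and the median gene had a log2 Cko/WT ratio of -0.15. Scaling by that median moved the counts to 156 higher and 51 lower. A further condition, that the gene reach 25% of its highest level in the other classes of the library, left 68 higher (1.54%) and 67 lower (1.52%) of 4405 genes. None of the 5 markers passed 2-fold, with log2 ratios of 0.53 for *Car1*, 0.58 for *Mt1*, 0.81 (0.75 to 0.88) for *Mt2*, -0.88 (-0.99 to -0.76) for *Fam132a* and -0.14 for *Atp1b2*. Within the onset index tertiles *Mt2* was higher in the Cko in each, by 0.68, 0.54 and 0.59 on the log2 scale, while *Mt1* was higher by 0.39, 0.15 and 0.09, the last with an interval from -0.12 to 0.29.

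**Figure D5:**
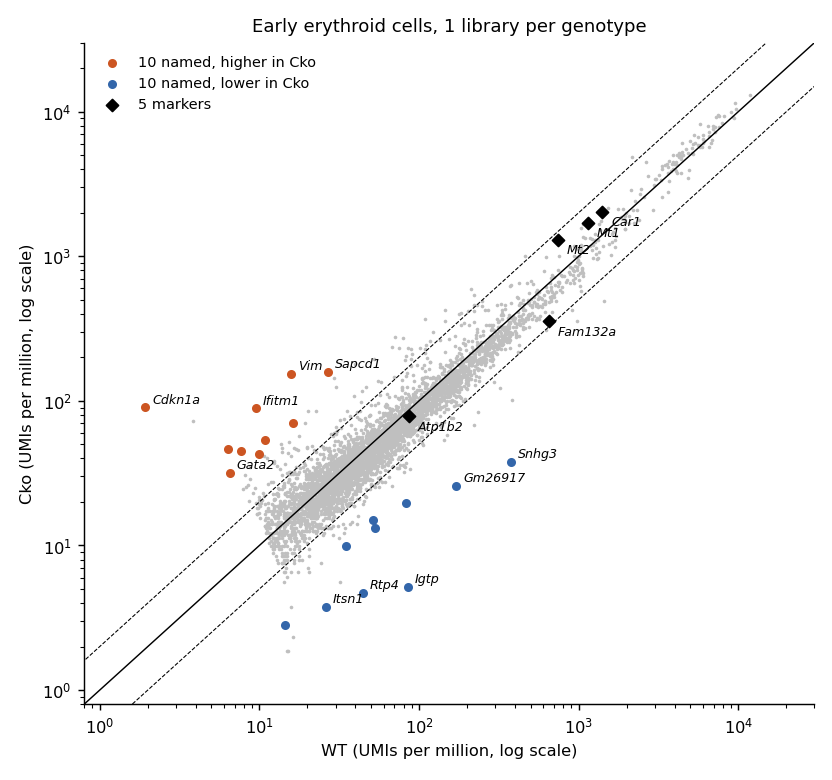
CPM of 4674 genes in the early erythroid cells of the WT (horizontal) and Cko (vertical) library on log scales, with equality (solid) and 2-fold (dashed) lines. *Cdkn1a*, *Vim* and *Ifitm1* lay farthest above the lines among the named genes, *Igtp*, *Snhg3* and *Rtp4* farthest below, and the 5 markers (diamonds) lay within 2-fold.

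The highest ratio belonged to *Cdkn1a*, the cyclin-dependent kinase inhibitor p21. It was at 1.92 CPM (1.02 to 3.29) in the WT, where 13 UMIs came from 5 of 383 cells, and at 90.1 CPM (77.8 to 104) in the Cko, where 192 UMIs came from 37 of 100 cells, a log2 ratio of 5.55 (4.74 to 6.48). After thinning, 0.261% (0.00661 to 1.45) of the WT and 17.0% (10.2 to 25.8) of the Cko cells held a UMI, against 7.25% and 4.97% of the *Cd79a* cells. The WT erythroid cells thus had less *Cdkn1a* than B cells of the same library, and the Cko erythroid cells more. It was 83.4, 121 and 76.1 CPM in the index tertiles of the Cko and 4.07, 2.35 and 0.366 CPM in those of the WT. The difference ran on into later cells, with a log2 ratio of 5.4 at onset and 5.43 in intermediate cells, but was 0.95 in the *Mpo* and *Ctsg* progenitors and -0.42 in *Cd79a* cells.

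In a list of p53 targets written after these ratios were seen, 7 of 8 tested genes were higher in the Cko and 1 was lower. The share of all genes that were merely higher was not counted. *Ccng1* (cyclin G1) was at 43.5 and 97.6 CPM (log2 ratio 1.17) and *Bax*, which promotes cell death, at 223 and 350 CPM (0.65), while *Mdm2* was at 14.8 and 14.1 CPM and *Trp53* itself at 253 and 254 CPM. Of 8 tested genes 2 were at least 2-fold higher, *Cdkn1a* and *Ccng1*, against 2.27% of all genes, and the median log2 ratio was 0.55. *Cdkn1a*, seen before the list was written, is counted in all of these values, so they are no test. *Phlda3* (57.3 CPM in 48.0% of the cells) and *Zmat3* (29.1 CPM in 35.0%) were listed for the Cko only and had 4.60 and 1.73 CPM in its *Cd79a* cells.

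Of 7 tested genes of the stem and multipotent list, 4 (*Gata2*, *Ifitm1*, *Muc13* and *Txnip*) were at least 2-fold higher in the Cko, against 2.27% of all genes, with a median log2 ratio of 1.77. *Gata2* was at 6.51 CPM in the WT and 31.9 CPM in the Cko (log2 ratio 2.29), the homeobox gene *Hhex* at 16.3 and 70.4 CPM (2.11), *Muc13*, a membrane mucin, at 7.70 and 45.1 CPM (2.55), *Ifitm1*, an interferon-induced membrane protein of early progenitors, at 9.48 and 88.7 CPM (3.23) and *Vim*, the intermediate filament vimentin, at 15.7 and 154 CPM (3.29). *Ifitm1* rested on few cells, the top 10 cells holding 93.1% of its 189 Cko UMIs, whereas *Vim* had a UMI in 53% of the Cko and 11.8% of the WT cells. These genes were concentrated in the lowest index tertile, with *Gata2* at 16.3 CPM there in the WT and 45.1 CPM in the Cko, *Ifitm1* at 30.6 and 127 CPM and *Vim* at 32.6 and 195 CPM. With the WT levels weighted to the Cko distribution of the index, the log2 ratios became 1.35 for *Gata2*, 2.01 for *Ifitm1*, 1.29 for *Muc13* and 2.54 for *Vim*, and 2.28 for *Sapcd1* (26.8 and 160 CPM unweighted). *Hhex*, itself a gene of the index, became 0.88 and was no longer past 2-fold. The unweighted difference was thus larger for each of these 6 genes. The early genes of the index also summed higher in the Cko at onset, so the weighting does not separate cell position from genotype. *Clec4d* (a lectin receptor of myeloid cells, 6.37 and 46.5 CPM), *Sept1* (a septin, 10.8 and 53.5 CPM) and *Cd59a* (a complement inhibitor, 9.92 and 42.7 CPM) completed the 10 highest. The weighting took *Clec4d* from 2.87 to 1.6 and *Sept1* from 2.31 to 1.70. *Cd59a* kept its ratio under the weighting (2.11 and 2.14) and was at -0.43 in cells at onset.

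Genes of red cell maturation had a lower level in the Cko. Of the 20 erythroid identity genes 19 were lower and 4 at least 2-fold lower (median log2 ratio -0.53), and of the 14 tested heme synthesis genes all were lower and 3 at least 2-fold (-0.60). The red cell membrane list had 16 of 17 lower and 5 at least 2-fold (-0.56), and the terminal erythroid list 13 of 16 and 7 (-0.78), against 1.95% of all genes at least 2-fold lower. The lists share members. The share of all genes that were merely lower was not counted, so these counts and those below have no such background. The median log2 ratio over all genes was -0.15. *Rhd*, the Rh blood group antigen, was at 233 and 83.5 CPM, *Smim1*, the Vel blood group antigen, at 323 and 122 CPM and *Hemgn* (hemogen, a nuclear protein of erythroid cells) at 149 and 58.2 CPM. All 27 S phase genes were lower in the Cko, 4 of them at least 2-fold (-0.64), as *Mcm4*, part of the replicative helicase, at 79.2 and 36.1 CPM. Of the 27 genes of G2 and mitosis 24 were lower and none at least 2-fold (-0.38), and ribosome biogenesis was nearly level (10 higher and 15 lower, -0.06). *Klf1* was lower by -0.51 and *Gata1* by -0.38, whereas *Myb*, a gene of the index, was higher by 0.67 and *Myc* by 0.84. Weighted to the index, the ratios were -0.08 for *Myb*, 0.44 for *Myc*, -0.33 for *Klf1*, -0.86 for *Rhd* and -0.52 for *Hemgn*. *Cd79a* cells of the WT held *Rhd* at 27.2 CPM and *Smim1* at 25.4 CPM against 2.30 and 1.15 CPM in the Cko. Single *Cd79a* cells held up to 38 *Car1* UMIs in the WT and up to 1 in the Cko. Free RNA therefore cannot be told apart here from erythroid RNA counted with *Cd79a* cells, and its part was not tested.

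A second group of lower genes responds to interferon. *Igtp*, an interferon-induced GTPase, was at 85 CPM (78.2 to 92.2) in the WT and 5.16 CPM (2.58 to 9.24) in the Cko, a log2 ratio of -4.04 (-5.05 to -3.19), with a UMI in 60.1% and 11% of the cells. Thinned, the shares were 22.2% (18.1 to 26.7) and 1% (0.0253 to 5.45), against 7.77% and 2.05% of the *Cd79a* cells. *Rtp4* was at 44.4 and 4.69 CPM (-3.24), *Ifi47* at 82.8 and 19.7 CPM (-2.07) and *Gbp7*, a guanylate-binding protein, at 51.5 and 15.0 CPM (-1.78). These 4 were among the 10 lowest by the rule for named genes. In a wider list of interferon genes, written after these values were seen, 18 were tested and 7 were at least 2-fold lower, against 1.95% of all genes, and none of the 18 was at least 2-fold higher. Genes already seen to be low could enter this list, so its counts are no test. *Ifitm1*, which is also induced by interferon and was higher in the Cko (log2 ratio 3.23), is not in that list. *Irf7* (20.1 and 7.04 CPM) and *Isg15* (41.5 and 16 CPM) were also among these 7. *Igtp* was at 123, 107 and 43.6 CPM in the index tertiles of the WT and at 5.47, 2.32 and 8.45 CPM in the Cko, and weighting to the index left its ratio at -4.43. In other classes the log2 ratio of *Igtp* was -2.58 in the *Mpo* and *Ctsg* progenitors and -1.83 in *Cd79a* cells, but 0.90 in cells at onset and 1.96 in intermediate cells. The other genes differed from it in later erythroid cells, with *Ifi47* at -0.90 at onset and -1.03 in intermediate cells, *Gbp7* at -0.84 and 0.31 and *Rtp4* at -0.19 and 0.39.

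The lowest 10 also held *Snhg3*, *Gm26917*, *Itsn1*, *Sec14l2* and *Lpcat1*. *Snhg3*, a host RNA of small nucleolar RNAs, was at 378 and 38.0 CPM (-3.31) and the non-coding *Gm26917* at 170 and 25.8 CPM (-2.72). Both were as far or farther down in most other classes, with log2 ratios between -4.50 and -3.25 for *Snhg3* and between -3.50 and -1.89 for *Gm26917*, so the difference was not particular to early erythroid cells. *Itsn1*, an endocytic scaffold protein, was likewise lower in other classes (-2.37 in *Cd79a* cells). *Lpcat1*, a phospholipid acyltransferase, was at 34.7 and 9.86 CPM (-1.81), and *Sec14l2*, a lipid-binding protein, at 14.5 and 2.82 CPM (-2.37), with -0.38 for *Sec14l2* at onset. Weighted to the index, *Sec14l2* was at -1.19, *Lpcat1* at -1.21 and *Itsn1* at -2.22. Over all 106 genes that were at least 2-fold higher in the Cko, 89 had 20 or more UMIs at onset, where 44 were again at least 2-fold higher and 4 lower, and 101 had them in *Cd79a* cells, where 21 were higher and 1 lower. Of the 91 lower genes, 13 of 90 were again at least 2-fold lower at onset and 39 of 89 in *Cd79a* cells. The share of all genes past 2-fold was not counted in these other classes, so these counts have no background. The Cko had only 26 cells at onset.

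*Mbtps1*, the gene targeted in the Cko, was at 36.7 CPM in the WT (46.2% of the cells) and 26.3 CPM in the Cko (41.0%), a log2 ratio of -0.48 (-0.93 to -0.06). These are counts of 3′ ends, which lie outside the floxed exon, so they do not check the deletion. *Sp7*, whose promoter drives the Cre, had 0 UMIs in WT early erythroid cells, which allows up to 0.444 CPM, and was not listed for the Cko.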

How the data were processed

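BMCs of 1 WT and 1 Cko mouse were analysed, 1 library each on the 10x Chromium Single Cell 3′ v2 platform. The authors aligned reads and counted UMIs with Cell Ranger (GRCm38 in the submitters' processing notes, version not given in the sources used here), and the deposited tables give raw UMI counts of each gene in each barcode, without normalization. Every listed gene reached 4 or more UMIs in a barcode, so unlisted genes were not read as 0. The row and column of totals were dropped, and *Pde4d*, given in 2 rows for the WT, was not used. Barcodes with 200 or more genes were kept.

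UMIs were summed per class and library and scaled to CPM. Genes needed 100 UMIs, and the thresholds were 2-fold higher or lower. No test was made, since there was 1 library per genotype. Intervals are 95% and cover counting error only, and a count of 0 was read as allowing 3 counts. For shares of cells with a UMI, cells were thinned to 3000 UMIs, which left out none. The class at onset and the intermediate class followed the rule with hemoglobin from 1% to under 10% and from 10% to under 50%. *Mpo* and *Ctsg* progenitors had 1% or more in these genes, *Cd79a* cells 3 or more *Cd79a* UMIs, and neutrophil gene cells 5% or more in the 6 neutrophil genes, all with less than 1% hemoglobin. Doublets (Scrublet in scanpy 1.11.5, expected rate 5%) were called and kept.

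Named genes were the listed markers and pathway genes, the 10 highest and 10 lowest Cko/WT ratios among genes at 25% or more of their highest level in other classes, the 15 highest folds over other cells among genes in 25% or more of the cells of each library, the 10 highest and 10 lowest ratios against onset, *Mbtps1*, *Sp7* and sex chromosome genes. The members and lists were chosen with earlier results of these data known, and the onset index, the interferon list and the p53 list after the ratios were seen. Some genes that the rule names, 1 of them in the index, are not reported here. The alternatives were other *Car1*, hemoglobin, *Mpo*, gene and UMI limits, doublet removal, other denominators, scalings and totals. The formula of the ratio intervals was checked on simulated Poisson sums, which leave out the spread between cells. Sums were made with pandas 2.3.3 and numpy 2.4.6 in Python 3.11.15, intervals with scipy 1.17.1 and figures with matplotlib 3.10.9.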

Additional observations from a re-analysis of the deposited data

How the results depend on the processing

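No paired analysis was possible because each genotype had 1 library, which also leaves no replicate to leave out. The log2 Cko/WT ratio of the share of early erythroid cells (-1.16) moved to -1.96 among cells with hemoglobin under 1% and turned to 0.71 among the *Car1* cells of the rule at any hemoglobin level (1156 WT and 185 Cko cells). It stayed within its interval under the other limits on *Car1*, genes, hemoglobin and *Mpo* and without called doublets. The counts of genes at least 2-fold higher (106) and lower (91) in the Cko became 51 and 52 with a limit of 300 UMIs, 253 and 150 with 20 UMIs, and 56 and 48 with WT levels weighted to the onset index, an alternative added after the data were seen, under which 48 of the 106 and 37 of the 91 genes remained. Scaling by the median ratio left 51 lower. The counts against onset (155 higher and 59 lower) became 42 and 27 with 300 UMIs, and 438 and 178 in the WT library alone, also added later. Fewer or more genes entered at other UMI limits, and for the remaining shifts the cause was not tested. The 26 Cko cells at onset limit that comparison. Of 186 ratios of the 20 named genes under alternatives, none reversed and 11 left their interval, 10 of these under the weighting.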

Other observations

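Antigen presentation genes went against the other interferon genes. *H2-D1* and *H2-K1*, heavy chains of MHC class I, were at 247 and 222 CPM in the WT and at 493 and 417 CPM in the Cko early erythroid cells (log2 ratios 0.99 and 0.91), and *B2m*, their light chain, at 1067 and 1671 CPM (0.65). The ratio was larger in later erythroid cells, with 1.99 for *H2-D1* and 1.72 for *B2m* in cells with intermediate hemoglobin, and was 0.57 and 0.19 in *Cd79a* cells. Glycolysis genes were higher in the Cko for 9 of 12 tested genes (median log2 ratio 0.33, against -0.15 over all genes). At least 2-fold higher were *Pkm* (8.74 and 34.7 CPM) and *Pgam1* (30.1 and 65.7 CPM), against 2.27% of all genes. In both libraries all 8 tested glycolysis genes were higher in early than in onset cells.

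S1P cleaves the factors that switch on cholesterol synthesis and the ER stress response. Only 8 of 26 cholesterol genes were listed in both libraries. All 6 tested were lower in the Cko (median log2 ratio -0.41), and *Fdps*, an enzyme of the pathway, was at 67.4 and 25.8 CPM (-1.38), with ratios of -1.18 in *Cd79a* cells and -1.41 in neutrophil gene cells. The 14 tested ER chaperones had 12 lower and none past 2-fold (-0.24), and *Hspa5*, the chaperone BiP, was at 143 and 106 CPM. Over all genes tested the median was -0.15. The 8 tested genes of the integrated stress response had none past 2-fold (-0.22). *Chil3* was the one neutrophil gene of 12 that was at least 2-fold higher in the Cko (28.3 and 59.1 CPM), against 2.27% of all genes. The neutrophil and myeloid list as a whole was below its level in *Cd79a* cells, and the part of free RNA in *Chil3* was not tested. *BC100530*, the one tested gene of the stefin A family, was at 11.3 and 26.8 CPM, with a log2 ratio of 2.27 in *Cd79a* cells. *Rps18-ps3*, a ribosomal protein pseudogene, was at 110 and 367 CPM (1.74) and lay between 1.06 and 1.79 in the 5 other classes compared.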
